A study of Mus musculus with 6 samples.

Results

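The genes described here are 10 CXC chemokines, a family of small secreted proteins named for the spacing of their first cysteines. They and the gene lists below were chosen by name, but with earlier results of these data known. Cxcl1, Cxcl2, Cxcl3, Cxcl5 and Ppbp attract neutrophils, and Pf4 is a platelet chemokine. Cxcl12, Cxcl13, Cxcl14 and Cxcl16 are mostly called homeostatic. A gene entered when an array row carried exactly 1 symbol and that symbol was a member. All 10 were found, with 1 row each, among 19938 genes. All RNA was from liver cells carrying both CD11b and Gr-1 (CD11b+Gr-1+), sorted from C57BL/6 mice that bore established EL4 tumours, which grow from a transplanted T cell lymphoma line. In the labels these are myeloid-derived suppressor cells, immature myeloid cells of a granulocytic and a monocytic kind. One group of 3 arrays followed an injection of Type IV concanavalin A (Con A), a lectin from jack beans that stimulates lymphocytes and gives mice an acute hepatitis. The other group of 3 arrays followed an injection of PBS, and a label also calls it untreated. Both groups were sampled at 3 hours. For Con A the design text has 12.5 mg/kg, whereas the treatment field has 12.5 ug/kg, and the true dose is not known here. Each group had 3 mice, but no label ties an array to a single mouse, so the p-values below rest on array-to-array spread that could be technical in part.

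Neutrophil-attracting CXC chemokines carry a short glutamate-leucine-arginine motif before the first cysteines and act through the receptor Cxcr2, which is found on neutrophils and their precursors. Tissue macrophages, monocytes, endothelium and neutrophils themselves make several of them within hours of an inflammatory signal, largely under NF-kB. Homeostatic members guide cells in resting tissue: Cxcl12 holds myeloid cells in bone marrow through Cxcr4, Cxcl13 draws B cells through Cxcr5, and Cxcl16 is a membrane-bound ligand of Cxcr6. In the liver, neutrophil entry during acute hepatitis is a classical setting of the Cxcr2 ligands.

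Values are log2 expression levels from a mouse Affymetrix gene array, and a difference of 1 is 2-fold. Levels of different genes come from different probes and are not set against each other. The 6 array medians were 7.05 to 7.08, and the maxima 14.2 to 14.3. There are no detection calls, so expression is not established for a gene near or under the array medians. The sorted phenotype was checked on Ly6g, a granulocyte surface marker, which was at 13.46 to 13.56 after Con A and 13.51 to 13.69 after PBS, and on Itgam, which encodes CD11b, at 12.73 to 12.80 after Con A and 12.76 to 13.06 after PBS. Of 11 granulocytic markers, 0 passed the test of the whole table (limma, Benjamini-Hochberg adjusted p under 0.05), and 0 had an unadjusted p under 0.05. Their mean level was 13.42 to 13.45 after Con A and 13.36 to 13.50 after PBS, near the top of the scale. The lack of calls there does not establish an equal share of these cells. Of all genes, 4.59% were called higher after Con A, 7.22% lower and 11.8% in either direction. Of 9 monocytic markers, 1 was higher and 4 were lower after Con A, and the mean level of the list was 9.89 to 10.33 after Con A against 10.79 to 11.10 after PBS. Fewer cells of a type and less RNA per cell cannot be told apart in such samples, and the part of the monocytic markers in the results below was not tested.

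After Con A, the array levels of Cxcl3 and Cxcl2 rose, 4.98-fold and 2.34-fold. Cxcl3 was under the array medians in PBS replicates 1 and 2, so its 4.98 is not a measured fold of expression. None of the 10 members was called lower, and 8 did not pass the test. The 2 members called higher compare with 4.59% of all genes called higher, and 11.8% of all genes were called in either direction. The count at an unadjusted p under 0.05 was also 2 higher and 0 lower. The median difference over the 10 members was 0.56, beside 0.02 over all genes. The groups did not overlap for 4 members, Cxcl1, Cxcl2, Cxcl3 and Cxcl12, each with Con A above, where 29.9% of all genes did not overlap in either direction 14.4% had Con A above and 15.6% had Con A below. The members' count of calls was 0 in each fit that left out Con A replicate 2, Con A replicate 3 or PBS replicate 1, and by the unmoderated test, with 2 members at an unadjusted p under 0.05 each time.

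**Figure D1:**
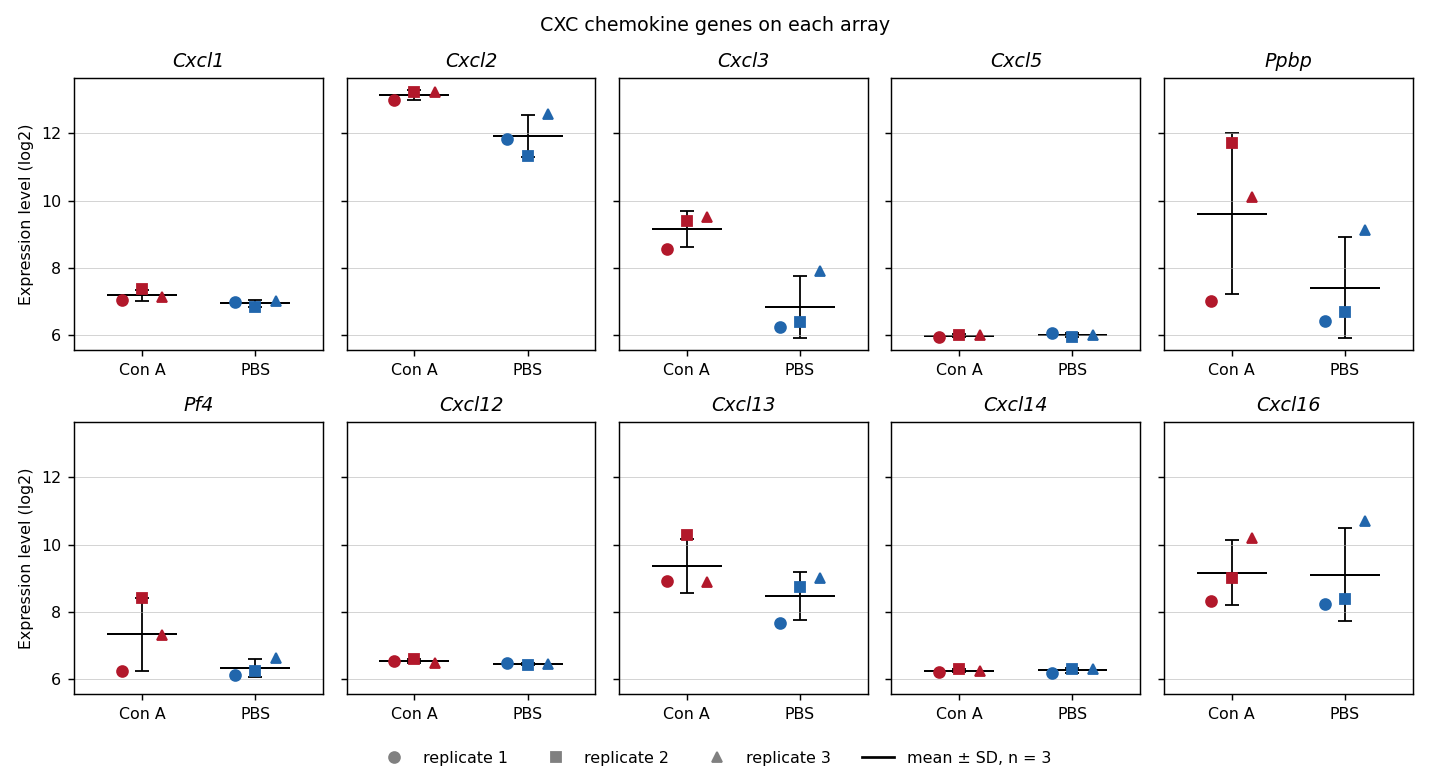
Level of each CXC chemokine gene (log2, vertical axis, the same in all panels) on the 3 Con A arrays (left, red) and the 3 PBS arrays (right, blue); shapes mark replicates, and lines give mean ± SD. Cxcl2 and Cxcl3 sit higher after Con A. Ppbp, Cxcl13 and Cxcl16 spread widely within both groups, and Pf4 within the Con A group. Cxcl1, Cxcl5, Cxcl12 and Cxcl14 stay near or under the array medians.

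Cxcl1, Cxcl2 and Cxcl3 are close paralogues that lie in 1 cluster on mouse chromosome 5, in the order Cxcl5, Ppbp, Pf4, Cxcl3, Cxcl15, Cxcl1 and Cxcl2 (RefSeq, GRCm38.p6). The 150 bases before their RefSeq starts are shown because these paralogues share a kappa B type motif, the kind of element that NF-kB binds, while their levels differed in how far they moved. Capitals mark matches to GGG, any 2 bases and TTTCC, searched on both strands. All are on the plus strand of GRCm38.p6, at chr5:90891095-90891244 for Cxcl1, chr5:90903749-90903898 for Cxcl2 and chr5:90785951-90786100 for Cxcl3.
Cxcl1: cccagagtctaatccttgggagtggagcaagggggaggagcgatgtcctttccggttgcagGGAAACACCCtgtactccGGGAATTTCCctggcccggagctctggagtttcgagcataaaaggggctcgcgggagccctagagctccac
Cxcl2: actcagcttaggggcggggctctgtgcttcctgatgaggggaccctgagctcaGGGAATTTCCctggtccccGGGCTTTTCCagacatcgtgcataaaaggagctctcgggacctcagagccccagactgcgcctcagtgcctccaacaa
Cxcl3: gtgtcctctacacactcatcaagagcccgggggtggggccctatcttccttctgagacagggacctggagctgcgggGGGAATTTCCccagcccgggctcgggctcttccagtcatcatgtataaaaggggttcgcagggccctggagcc

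Each of these stretches held GGGAATTTCC, whose first base lay 71 bases before the start in Cxcl1, 97 bases before it in Cxcl2 and 73 bases before it in Cxcl3. Cxcl1 had another match on the opposite strand beginning 89 bases before the start, and Cxcl2 had GGGCTTTTCC at 78 bases. No matches overlapped, and no other motif was searched. In the 250 bases before the start, 3 of the 8 member genes in the promoter table had a match (Cxcl1, Cxcl2 and Cxcl3), and Ppbp, Pf4, Cxcl12, Cxcl13 and Cxcl14 had none. Of 32851 promoter stretches of that length, 1.41% held a match. Global alignment of the printed stretches gave 53.4% identity between Cxcl1 and Cxcl2, 57.3% between Cxcl1 and Cxcl3 and 52.0% between Cxcl2 and Cxcl3. A match describes letters only.

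Cxcl3 encodes a Cxcr2 ligand close to macrophage inflammatory protein 2. Its level was 8.56, 9.41 and 9.51 in Con A replicates 1 to 3, against 6.23, 6.40 and 7.89 in PBS replicates 1 to 3. No array of 1 group reached into the other, and PBS replicate 3 was the nearest to the Con A group. The means were 9.16 ± 0.52 after Con A and 6.84 ± 0.91 after PBS (SD, n = 3 each), a difference of 2.32 with a 95% interval of 1.26 to 3.37 (limma adjusted p = 0.0167). In fold terms the interval was 2.40 to 10.3. In PBS replicates 1 and 2 the level was under the array medians, where expression is not established. The size of the Cxcl3 difference is thus not a measured fold of expression. Leaving out Con A replicate 2, Con A replicate 3 or PBS replicate 1 gave adjusted p of 0.0801, 0.0655 and 0.073, with differences of 2.19, 2.14 and 2.01.

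Cxcl2 encodes macrophage inflammatory protein 2, a main mouse attractant of neutrophils. It stood at 12.98, 13.21 and 13.23 after Con A, against 11.84, 11.33 and 12.57 after PBS. Con A lay above PBS without overlap, the Con A arrays lay close together, and PBS replicate 3 was again the highest PBS array. The means were 13.14 ± 0.14 after Con A and 11.91 ± 0.63 after PBS (SD, n = 3 each). The difference was 1.23 (95% interval 0.58 to 1.88, limma adjusted p = 0.03), or 1.49-fold to 3.68-fold. The Con A levels were near the top of the scale. Leaving out Con A replicate 1, 2 or 3 or PBS replicate 1 gave adjusted p of 0.0628, 0.116, 0.0982 and 0.115, with differences of 1.18 to 1.31.

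Cxcl1 encodes the keratinocyte-derived chemokine KC, another Cxcr2 ligand. Its level was 7.05, 7.36 and 7.14 after Con A, against 7.00, 6.83 and 7.01 after PBS. Con A and PBS did not overlap, but they were separated by less than the spread within the Con A group. The difference was 0.24 (95% interval -0.003 to 0.47, limma adjusted p = 0.207), so it did not pass, and the upper end of the interval was 1.39-fold. Leaving out Con A replicate 2 gave a difference of 0.15 (adjusted p = 0.471). All 6 levels were near the array medians.

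Cxcl5 encodes the Cxcr2 ligand LIX, which is made mostly by epithelial and stromal cells. It was at 5.94, 6.01 and 6.01 after Con A, against 6.08, 5.96 and 5.99 after PBS. The groups overlapped, and all 6 arrays were under the array medians. The difference was -0.02, with a 95% interval of 0.878-fold to 1.11-fold.

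**Figure D2:**
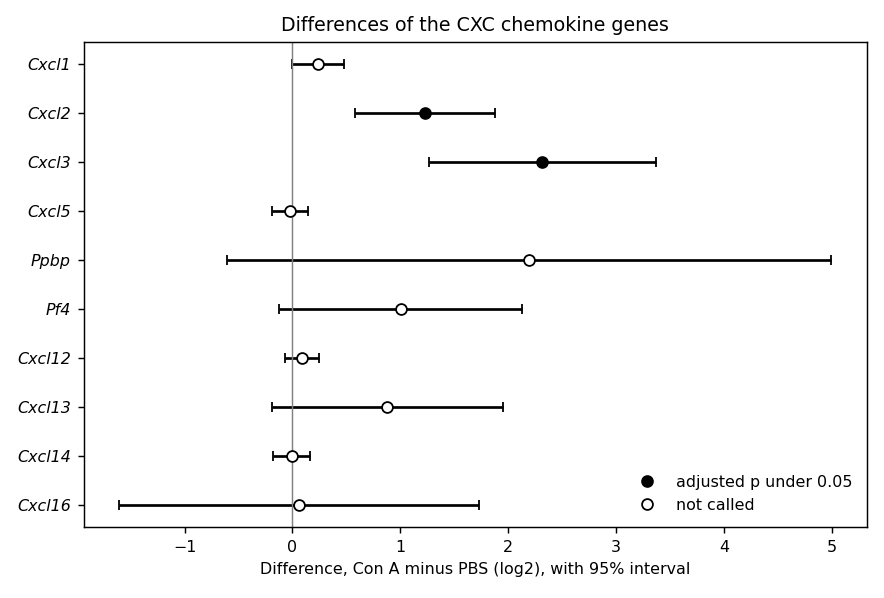
Difference in level, Con A minus PBS (log2, horizontal axis), for the CXC chemokine genes, with 95% intervals of the moderated fit over 3 arrays per group; filled points passed the adjusted test. Cxcl2 at 1.23 and Cxcl3 at 2.32 are filled, the intervals of Ppbp and Cxcl16 are the widest, and those of Cxcl5, Cxcl12 and Cxcl14 are narrow around 0.

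Ppbp encodes platelet basic protein, the precursor of a Cxcr2 ligand stored in platelet granules. Its level was 7.00, 11.72 and 10.11 in Con A replicates 1 to 3, against 6.43, 6.69 and 9.12 in PBS replicates 1 to 3. Con A replicates 2 and 3 were high, Con A replicate 1 was not, and PBS replicate 3 was above Con A replicate 1, so the groups overlapped. The means were 9.61 ± 2.40 after Con A and 7.42 ± 1.49 after PBS (SD, n = 3 each). The difference of 2.20 was close in size to that of Cxcl3, but the 95% interval for Ppbp ran from -0.60 to 4.99 (limma adjusted p = 0.322). Con A replicate 1 and PBS replicates 1 and 2 were under the array medians, where expression is not established. The size of the Ppbp difference is thus not a measured fold of expression. Leaving out Con A replicate 2 gave a difference of 1.14, and leaving out Con A replicate 1 gave 3.50 (adjusted p = 0.683 and 0.06).

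Pf4 encodes platelet factor 4, which lacks the neutrophil-attracting motif and binds heparan sulphate. It stood at 6.25, 8.43 and 7.33 after Con A, against 6.12, 6.24 and 6.64 after PBS. The order of the arrays within each group was the same as for Ppbp, and the groups overlapped. The difference was 1.00 (95% interval -0.12 to 2.13, limma adjusted p = 0.257). All PBS levels and that of Con A replicate 1 were under the array medians, where expression is not established. The size of the difference is thus not a measured fold of expression. Leaving out Con A replicate 2 gave 0.46, and leaving out Con A replicate 1 gave 1.55, where it passed the test (adjusted p = 0.036).

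Platelet markers other than these chemokines were read on the same arrays. Of 9 measured markers, 2 were higher after Con A, 0 were lower and 7 did not pass (4 higher and 0 lower at an unadjusted p under 0.05), beside 4.59% of all genes called higher. The markers called were Thbs1, a thrombospondin gene that myeloid cells also express, at 13.13, 13.06 and 13.06 after Con A and 11.17, 10.96 and 11.85 after PBS, and Itga2b, a platelet integrin gene, at 8.42, 8.53 and 8.58 after Con A and 7.80, 7.87 and 7.66 after PBS. In neither did Con A replicate 2 stand out. The mean level of the list was 8.26, 8.93 and 8.50 after Con A, against 7.92 to 8.05 after PBS. Gp9, a platelet glycoprotein gene, was at 6.93, 8.77 and 7.97 after Con A and 6.93, 6.78 and 6.90 after PBS. Tubb1, a tubulin gene of megakaryocytes and platelets, was at 7.31, 8.90 and 7.87 after Con A and 7.08, 7.20 and 7.24 after PBS. Neither Gp9 nor Tubb1 passed the test (adjusted p = 0.164 and 0.181), and both, like Ppbp and Pf4, were higher in Con A replicates 2 and 3 than in Con A replicate 1. Itgb3, another platelet integrin gene, did not share this order, at 9.44, 9.40 and 9.40 after Con A and 9.81, 9.88 and 9.01 after PBS. In PBS replicate 3 Ppbp was high, whereas Gp9 and Tubb1 were close to the other PBS arrays. The part of platelets in the Ppbp and Pf4 values was not tested.

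Cxcl12 encodes stromal cell-derived factor 1. It was at 6.54, 6.60 and 6.50 after Con A, against 6.48, 6.43 and 6.47 after PBS. The groups did not overlap, but all 6 arrays were under the array medians and the difference was 0.09 (95% interval -0.07 to 0.25, limma adjusted p = 0.5). Cxcl14, a chemokine of epithelia and stroma, was at 6.22, 6.31 and 6.25 after Con A and 6.18, 6.32 and 6.30 after PBS. Its groups overlapped, and the interval ran from 0.881-fold to 1.12-fold. As for Cxcl5, expression of Cxcl12 and Cxcl14 in the sorted cells is not established.

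Cxcl13 encodes the B cell attractant of lymphoid follicles. Its level was 8.91, 10.28 and 8.88 after Con A, against 7.66, 8.75 and 9.02 after PBS. Con A replicate 2 was the highest array and PBS replicate 1 the lowest, while the other 4 lay close together across the groups. The difference was 0.88 (95% interval -0.19 to 1.95, limma adjusted p = 0.299), and leaving out Con A replicate 2 or PBS replicate 1 gave 0.42 or 0.47. Of 11 Kupffer cell markers, 0 passed the test (0 at an unadjusted p under 0.05). Their mean level was 7.44, 9.04 and 7.97 after Con A, against 7.43, 7.80 and 7.74 after PBS, so Con A replicate 2 was the highest array here too. Among them, Clec4f, a lectin gene of Kupffer cells, was at 7.19, 9.18 and 7.62 after Con A and 7.05, 7.58 and 7.27 after PBS. The difference was positive for 10 of the 11 Kupffer cell markers, beside 11179 of all 19938 genes. It was also positive for 10 of 11 hepatocyte markers, so this count was not particular to Kupffer cell genes. The Kupffer cell marker Adgre1 went the other way and did not peak in Con A replicate 2. It was at 11.50, 11.73 and 11.84 after Con A and 12.01, 11.77 and 11.96 after PBS. The part of Kupffer cells in the Cxcl13 values was not tested.

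Cxcl16 encodes a transmembrane chemokine of macrophages and dendritic cells that can be shed. It was at 8.32, 9.0 and 10.20 after Con A, against 8.25, 8.39 and 10.70 after PBS. The replicate 3 arrays of both groups were high and the groups overlapped widely, with means of 9.18 ± 0.95 after Con A and 9.11 ± 1.38 after PBS (SD, n = 3 each). The difference was 0.06, and its 95% interval of -1.61 to 1.73 leaves changes of either sign. Leaving out PBS replicate 3 gave 0.86, and leaving out Con A replicate 3 gave -0.45.

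Of 8 dendritic cell markers, 0 passed the test (0 at an unadjusted p under 0.05), and their mean level was 7.09, 7.27 and 7.76 after Con A and 7.11, 7.10 and 7.69 after PBS. Cd209a, a lectin gene of monocyte-derived dendritic cells in mice, was at 9.14, 9.37 and 11.52 after Con A and 9.20, 9.17 and 11.13 after PBS. Ccr7, the receptor that guides dendritic cells to lymph nodes, was at 8.28, 8.68 and 10.24 after Con A and 8.22, 8.25 and 9.78 after PBS. Both genes were high in the replicate 3 arrays, as Cxcl16 was. The listed markers Zbtb46 and Itgae also had replicate 3 as the highest array of each group. The classical dendritic cell genes Xcr1, Clec9a and Flt3 were between 5.42 and 7.09 on all 6 arrays. For these genes and the listed marker Siglech, Con A replicate 3 was not the highest Con A array. The part of dendritic cells in the Cxcl16 values was not tested.

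**Figure D3:**
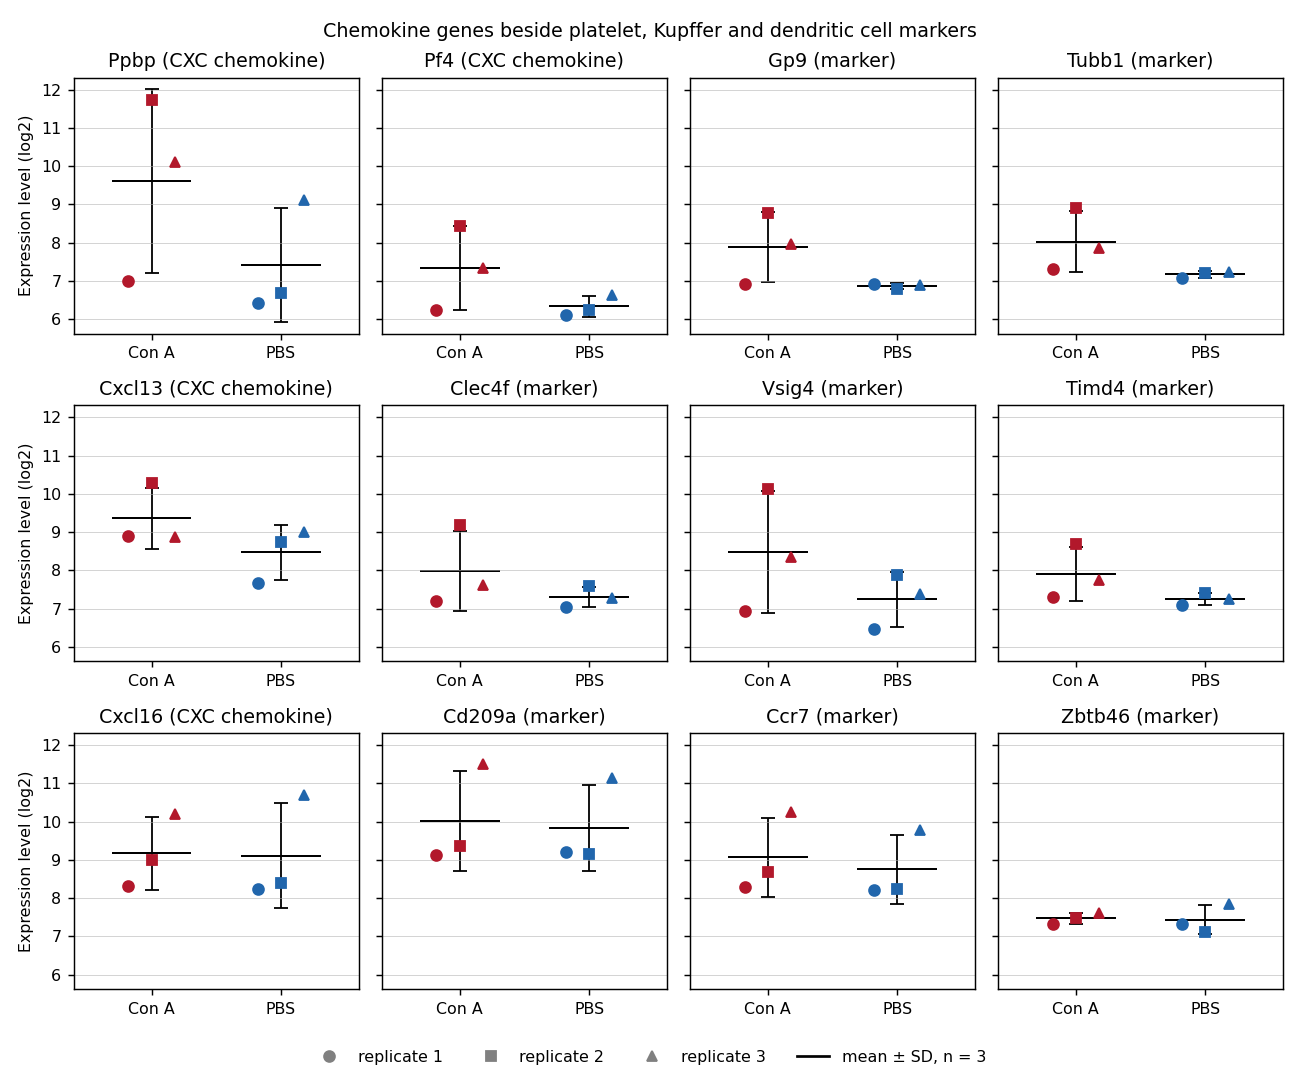
Levels (log2, vertical axis, the same in all panels) of Ppbp and Pf4 beside platelet markers (top), Cxcl13 beside Kupffer cell markers (middle) and Cxcl16 beside dendritic cell markers (bottom), on the 3 Con A arrays (left, red) and the 3 PBS arrays (right, blue), with mean ± SD. Con A replicate 2 is the highest array in the top and middle rows, and the replicate 3 arrays are the highest of their groups in the bottom row. The markers shown were chosen after their values were seen. Other listed markers, such as Itgb3, Adgre1 and Flt3, did not share these orders.

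Receptors and binding partners of the family were described from a list of 9 genes, of which 1 was higher, 1 was lower and 7 did not pass, beside 11.8% of all genes called in either direction; with so few genes this is no result about the list. Sdc4, which encodes syndecan-4, a heparan sulphate proteoglycan that can hold chemokines at the cell surface, was at 9.98, 10.59 and 11.15 after Con A, against 7.96, 8.31 and 9.05 after PBS. There was no overlap, and it rose by 2.13 (limma adjusted p = 0.00851). Cxcr4, the receptor of Cxcl12, was at 10.44, 10.61 and 10.53 after Con A, against 11.38, 11.32 and 11.15 after PBS. Each Con A array lay below each PBS array, and it fell by 0.76 (95% interval -0.96 to -0.55, limma adjusted p = 0.0024).

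Cxcr2, the receptor of the neutrophil-attracting members, was high on every array, at 13.21, 13.31 and 13.24 after Con A and 13.19, 12.96 and 13.18 after PBS. Its difference was 0.14 (95% interval -0.06 to 0.35, limma adjusted p = 0.373), and each Con A array lay above each PBS array. Cxcr1 had a difference of 0.48 and an adjusted p of 0.183. Cxcr5 and Cxcr6, the receptors of Cxcl13 and Cxcl16, and the scavengers Ackr1 and Ackr3 were under the array medians on all 6 arrays.

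Of 10 proteases that cut or shed chemokines, 1 was higher, 2 were lower and 7 did not pass, beside 4.59% of all genes called higher and 7.22% called lower. Mmp9, a gelatinase of neutrophil granules that trims CXC chemokines, was at 12.98, 13.01 and 12.95 after Con A and 13.65, 13.57 and 13.46 after PBS. The groups did not overlap, and it fell by 0.58 (limma adjusted p = 0.00401). Plau, which encodes urokinase, fell by 0.78 (adjusted p = 0.0344), and Ctsg, which encodes the granule protease cathepsin G, rose by 0.83 (adjusted p = 0.0407). The call of Ctsg ended in 5 of 6 fits with 1 array left out and the call of Plau in 4 of 6, with adjusted p up to 0.129 and 0.125. The list had 1 call in the fits that left out Con A replicate 1, Con A replicate 2 or PBS replicate 1. After median centring of the arrays the adjusted p of Ctsg was 0.0533.

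Adam10, the main constitutive sheddase of Cxcl16, had a difference of -0.21 (adjusted p = 0.0956), and Adam17 of 0.01. Dpp4, which inactivates Cxcl12, was at 6.58, 7.19 and 7.93 after Con A and 7.61, 7.63 and 9.59 after PBS. Its groups overlapped, replicate 3 was the highest array of each group, and the difference of -1.04 did not pass (95% interval -2.36 to 0.28).

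Signalling genes downstream of chemokine receptors were called lower in 6 of 19 measured cases and higher in 0 (8 lower and 1 higher at an unadjusted p under 0.05 by limma, and 4 lower and 0 higher by the unmoderated test), beside 7.22% of all genes called lower. The median difference of the list was -0.16. Rgs2, a brake on G protein signals, was at 10.28, 9.95 and 10.82 after Con A and 11.98, 11.79 and 11.98 after PBS. The groups did not overlap, and it fell by 1.57 (limma adjusted p = 0.0035). Arrb1, which encodes the receptor-uncoupling protein beta-arrestin 1, fell by 0.86, the G protein regulator gene Rgs14 fell by 0.85, and Pik3cg, the lipid kinase of neutrophil chemotaxis, fell by 0.77. Rac2, Dock2 and Gnai2, which carry chemotactic signals in leukocytes, had differences of -0.16, -0.08 and -0.06 and did not pass.

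Inducers and brakes of CXC chemokine mRNA were higher in 9 of 19 measured cases, lower in 1 and not called in 9, beside 4.59% of all genes called higher and 7.22% called lower. The median difference of the list was 0.53. The list had 6 calls in the fits that left out Con A replicate 2 or PBS replicate 1, and 0 by the unmoderated test, where 11 genes had an unadjusted p under 0.05. Il1a, which encodes the alarm cytokine interleukin-1 alpha, was at 10.66, 11.94 and 11.71 after Con A and 6.89, 6.50 and 8.39 after PBS, and it rose by 4.18 (limma adjusted p = 0.00286). In PBS replicates 1 and 2 Il1a was under the array medians, where expression is not established. The size of the Il1a difference is thus not a measured fold of expression. Il6, a cytokine gene, was at 8.29, 7.95 and 9.44 after Con A and 4.73, 5.67 and 6.49 after PBS, and its difference of 2.93 passed the test (adjusted p = 0.0104). All its PBS levels were under the array medians, where expression is not established, so the size of that difference is not a measured fold of expression. Tnfaip3, an inhibitor of NF-kB signalling, rose by 1.74, and the NF-kB subunit gene Relb rose by 1.20. Fos, an early response factor, was the gene called lower, at -0.74; it is named after its value was seen.

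The mean level of the list of inducers and brakes was 10.86, 11.11 and 11.23 after Con A, against 10.09, 9.92 and 10.64 after PBS. PBS replicate 3 was the highest PBS array for this list, as it was for Cxcl2 and Cxcl3. Without that array the differences of Cxcl2 and Cxcl3 were 1.56 and 2.84 (adjusted p = 0.00115 and 0.000832). Zfp36, whose product destabilises chemokine mRNA, and Il1b had differences of 0.17 and 0.48 and did not pass. Il17a, a lymphocyte cytokine that induces Cxcl1 and Cxcl5 in stromal cells, stayed at 6.88 to 6.96 on all 6 arrays.

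**Figure D4:**
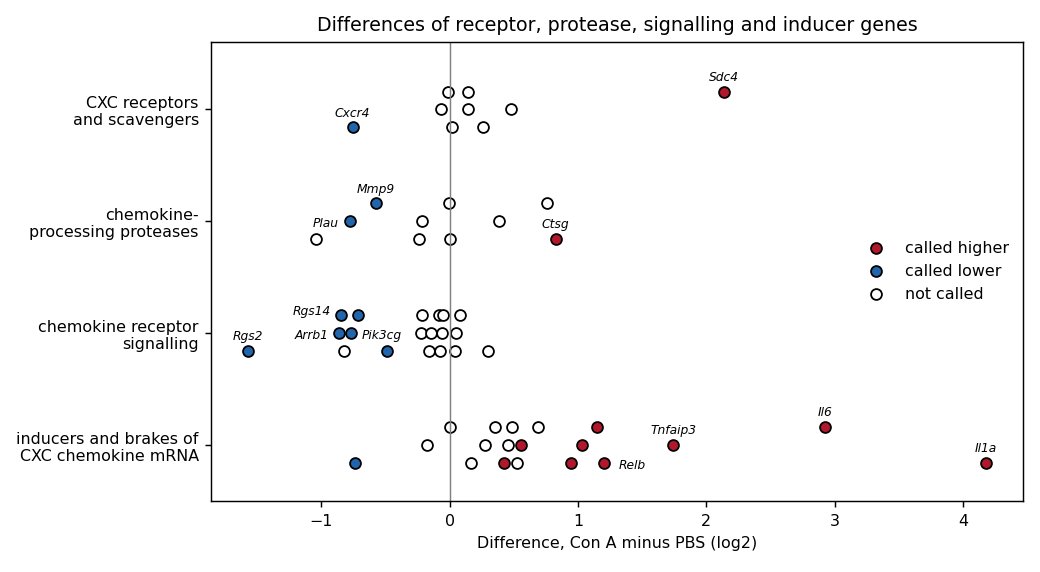
Difference in level, Con A minus PBS (log2, horizontal axis), of every measured gene in the receptor, protease, signalling and inducer-and-brake lists. Each point is 1 gene, red where called higher, blue where called lower and open where not called. The vertical scatter within a row has no meaning. The signalling list has 6 blue points and the list of inducers and brakes 9 red points, with Il1a farthest right at 4.18.

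The ligands of Cxcr3, which draw T cells rather than neutrophils and lie elsewhere on chromosome 5, were read on the same arrays, and all 3 rose after Con A. Cxcl9, Cxcl10 and Cxcl11 differed by 3.14, 3.37 and 3.45. Each had PBS replicate 3 as its highest PBS array, at 10.93, 11.06 and 7.37. For Cxcl11 the PBS levels of 7.32, 6.58 and 7.37 were near or under the array medians, and PBS replicates 1 and 3 were close together. The size of the Cxcl11 difference is thus not a measured fold of expression.

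Among all genes, the 5 whose levels followed Cxcl3 most closely over the 6 arrays were Nfil3, Serf1, Irf9, Clcn7 and Ccl4, with Pearson r of 0.997, 0.996, 0.996, 0.996 and 0.994. With 6 arrays in 2 groups such values are common, and 813 genes had r above 0.9. Nfil3, a transcription factor gene, was at 10.59, 10.89 and 11.08 after Con A and 9.36, 9.39 and 10.19 after PBS. Ccl4, which encodes a chemokine of the CC family, was at 9.16, 10.10 and 10.17 after Con A and 7.46, 7.74 and 8.70 after PBS. Among the other members, Cxcl2 was the nearest, with r of 0.96 at rank 252, followed by Ppbp at 0.82, Cxcl1 at 0.80, Pf4 at 0.76, Cxcl12 at 0.76, Cxcl13 at 0.72 and Cxcl16 at 0.47. Cxcl14 and Cxcl5 did not follow Cxcl3, with r of 0.16 and -0.21.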

How the data were processed

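The deposited files hold log2 expression values of 6 mouse Affymetrix gene arrays. The submitters' processing notes name RMA and Partek with no version; RMA subtracts background, puts arrays on 1 distribution and combines the probes of a row. Per the labels' protocols, RNA was amplified over whole transcripts and biotin-labelled. No genome build for the probes is used here. Rows with exactly 1 gene symbol numbered 21789 of 35556; where several named a gene, the row of highest mean over the 6 arrays was kept, giving 19938 genes. There were 0 identical pairs of arrays. With 3 arrays per group, precision is limited by their number.

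All genes were fitted with limma (version 3.58.1, R 4.3.3), Con A minus PBS, using lmFit and eBayes, and two-sided p-values were adjusted by Benjamini-Hochberg; a gene is called at an adjusted p under 0.05. Intervals are 95% intervals of that fit. Its calls, but not its intervals, were tried on simulated data with 200 changed genes and independent noise. The arrays had 2355 called genes, so the simulation differed from these data. Plots used matplotlib 3.10.9. Alternatives were the replicate number as a block, leaving out each array, median centring, quantile normalization, a level filter, a variance trend, array weights, the unmoderated test and the mean of a gene's rows.

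The members and lists were chosen with earlier results of these data known. Named genes were all members, up to 4 called genes with the largest difference per companion list, the Cxcr3 ligands and the 5 genes most like the called member with the largest difference. Genes of a list named beyond these, and those with values given beside a member, were chosen after their values were seen. Listed genes without a row of 1 symbol are not analysed here. Promoters and gene order are from RefSeq, GRCm38.p6; 8 of 10 members matched the promoter table.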

Additional observations from a re-analysis of the deposited data

How the results depend on the processing

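Leaving out 1 array at a time gave 1140 to 2765 called genes in place of 2355, and the unmoderated test gave 671. The CXC chemokines had 0 to 2 calls with 1 array left out and 0 by the unmoderated test, where 2 had an unadjusted p under 0.05; without Con A replicate 1 the 2 calls were Cxcl3 and Pf4. With 1 array left out, receptors had 2 to 3 calls, proteases 1 to 2 and signalling genes 5 to 6. Inducers and brakes had 6 to 14. By the unmoderated test receptors had 1 and proteases 1. Inducers and brakes had 0 by that test, and 11 of them had an unadjusted p under 0.05. The difference of Cxcl2 was 0.93 to 1.56 and that of Cxcl3 2.01 to 2.84 with 1 array left out, and by the unmoderated test their differences of 1.23 and 2.32 had adjusted p of 0.178 and 0.142. In the same left-out fits Pf4 ranged from 0.46 to 1.55, Cxcl5 from -0.048 to 0.013, Cxcl14 from -0.053 to 0.019 and Cxcl16 from -0.45 to 0.86, so the sign of Cxcl5, Cxcl14 and Cxcl16 rested on single arrays. The cause of these changes was not tested, beyond the smaller number of arrays in fits that leave 1 out. Cxcl2 and Cxcl3 kept their calls under centring, quantile normalization, the level filter (which 5 members passed), the variance trend, array weights and the mean of rows.

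Same-numbered arrays had correlations of deviations of 0.23, -0.17 and 0.56, and Con A replicate 1 correlated best with PBS replicate 2 (0.54). With 3 arrays per group these values cannot decide whether the numbers pair the samples, and no label says what the numbers mark. With the replicate number as a block, 2539 genes were called, and Cxcl2 and Cxcl3 kept their calls (adjusted p = 0.0127 and 0.0022). It changed no call of the other 8 members.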

Other observations

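Other CXC chemokine genes on the array were read after the members. Cxcl15, a lung chemokine gene that lies inside the chromosome 5 cluster, was at 4.24, 4.20 and 4.25 after Con A and 4.33, 4.19 and 4.22 after PBS. Cxcl17, a chemokine gene of mucosal tissue, was at 7.18, 7.15 and 7.15 after Con A and 7.19, 7.14 and 7.02 after PBS. Neither passed the test.

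Markers of other cells that make or answer these chemokines were also read. Of 11 hepatocyte markers 0 passed the test (0 at an unadjusted p under 0.05 by limma), with a mean level of 7.71, 8.40 and 7.69 after Con A and 7.64 to 7.70 after PBS. Con A replicate 2 was thus the highest array for hepatocyte, Kupffer and platelet markers. Of 13 endothelial and stellate markers 1 was higher (Pecam1) and 1 was lower (Lyve1), beside 4.59% of all genes called higher and 7.22% called lower. Their mean levels were 6.86 to 7.17 after Con A and 6.83 to 6.92 after PBS. Of 6 B and follicular cell markers, 0 were higher and 1 was lower (0 and 3 at an unadjusted p under 0.05). Of 7 T cell and EL4 markers 0 passed (2 higher and 0 lower at an unadjusted p under 0.05). With so few genes these counts are no result about the lists. Cr2, which follicular dendritic cells carry, was at 5.39 to 5.74 after Con A and 5.20 to 5.44 after PBS.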
